A study of Mus musculus with 24 samples.

Results

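The miR-29 family consists of 3 mature miRNAs in the mouse, mmu-miR-29a-3p, mmu-miR-29b-3p and mmu-miR-29c-3p, and they were followed over 8 tissues and 3 lens groups of a mouse model of lens-induced myopia. The members were chosen by name among the 1881 mouse miRNAs on the array, and all 3 were detected on all 24 arrays. In the study's methods, C57BL/6J mice wore a −30 D lens fixed over the right eye from 3 weeks of age for 3 weeks. The labels call this group lens-induced, and the normal eyes wore none. Another group is 0 D in the labels, taken here as a 0 D lens, and the methods do not describe its lens wear. Each eyeball was divided into cornea, iris, lens, retina, RPE/choroid (choroid in the labels) and sclera, and the series adds 2 brain regions that the labels give as SCN and LGN. In the study's methods the mice are male and the RNA of 3 mice was mixed for each ocular tissue of normal and −30 D eyes, and the pooling of the 0 D arrays and the brain arrays is not described there.

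Each tissue of a lens group was measured on 1 one-color array, labeled from 100 ng of RNA. A tissue therefore has 3 arrays, 1 per lens group, and a lens group has 8 arrays, 1 per tissue. One slide carried all 8 arrays of a lens group, and a tissue lay at the same position of every slide, so that slide and lens group, and position and tissue, cannot be told apart. The methods give 3 mice for the normal and for the −30 D group, so that the ocular tissues of such a group come from the same mice. A spread over arrays is then not a spread between animals, the 8 arrays of a lens group are not independent of each other, and the number of arrays limits the precision of every value.

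The miR-29 miRNAs are known as repressors of the mRNAs of extracellular matrix proteins, among them fibrillar collagens, elastin and fibrillin, and a fall of miR-29 accompanies fibrosis in several organs. In the brain they are known to rise as neurons mature. Sclera and cornea are built mainly of fibrillar collagen, and remodeling of the scleral matrix is a known feature of myopia. The arrays measured no mRNA, so collagen itself was not analysed here.

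The mature sequences are shown because the members differ at few bases, which bears on how well probes can tell them apart. They are RefSeq sequences of the build GRCm38.p6, read 5′ to 3′, and the seed, bases 2 to 8, which pairs with the target mRNA, is in capitals.
mmu-miR-29a-3p: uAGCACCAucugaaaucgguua
mmu-miR-29b-3p: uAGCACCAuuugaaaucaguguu
mmu-miR-29c-3p: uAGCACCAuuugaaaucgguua

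All 3 members carried the same seed, and among the 1679 mature mouse miRNA names of the reference no other name carried it. With positions counted from 1 at the 5′ end, mmu-miR-29c-3p differed from mmu-miR-29a-3p by a single substitution, C10U, and the 2 were identical at 21 of 22 positions. mmu-miR-29b-3p differed from mmu-miR-29c-3p by A18G, G21U and U22A, written from the former to the latter, and ended with 1 more base, at a length of 23 against 22. Signals of members this close may be shared between their probes, and how far the probes bind the other members was not tested.

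The genes lie in 2 pairs. Mir29a and Mir29b-1 are on the minus strand of chromosome 6, where mmu-miR-29a-3p occupies chr6:31062673-31062694 and one copy of mmu-miR-29b-3p occupies chr6:31063025-31063047, with 275 bases between the 2 hairpins. Mir29b-2 and Mir29c are on the plus strand of chromosome 1, where the other copy of mmu-miR-29b-3p occupies chr1:195037091-195037113 and mmu-miR-29c-3p occupies chr1:195037600-195037621, with 426 bases between the hairpins. The 2 copies of mmu-miR-29b-3p have the same mature sequence, so that the array cannot separate them.

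Levels are given as a scaled signal, in arbitrary units, after the arrays were brought to a common 75th percentile, taken over the 79 miRNAs that every array detected. Such a level can be compared for 1 member between tissues, and not between members, since each has its own probes. The cornea arrays detected 137 to 172 miRNAs and the crystalline lens arrays 129 to 149, against 213 to 249 on the arrays of the other tissues. The tissue labels were set beside marker miRNAs. The summed level of the 3 retina markers (mmu-miR-183-5p, mmu-miR-96-5p and mmu-miR-182-5p) lay between 14500 and 16170 in the retina and at 2.90% to 6.77% of the retina's in the sclera, that of the 3 mesenchyme markers lay between 1089 and 1266 in the sclera and between 3.63 and 4.78 in the retina, and that of the 3 surface epithelium markers lay between 1169 and 1437 in the cornea, with none detected in the retina.

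mmu-miR-29a-3p, encoded beside Mir29b-1, was high in 7 of the 8 tissues and low in the crystalline lens. In the SCN its scaled signal was 2353 on the normal array, 2029 on the 0 D array and 2323 on the −30 D array. In the LGN the values were 1454, 1242 and 1459 in the same order, and in the retina they were 1581, 1324 and 1229. All 3 SCN arrays lay above every array of the other tissues. In the sclera the values were 1278, 1155 and 977, and in the cornea they were 1061, 913 and 901. In the crystalline lens they were 90.8, 128 and 119. The sclera overlapped with the LGN and the retina, the cornea did not, and the crystalline lens lay far below all the other tissues. RPE/choroid, between 1081 and 1177, and iris, between 1019 and 1072, lay inside the range of the sclera.

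mmu-miR-29b-3p, which has a gene in each of the 2 pairs, was highest in the brain. In the SCN it measured 767, 894 and 753 on the normal, 0 D and −30 D arrays, in the LGN 401, 423 and 372, and in the retina 294, 309 and 220. These 3 tissues did not overlap with each other or with any other tissue. In the sclera it measured 125, 141 and 90.1, and in the cornea 111, 141 and 93.4. Iris, from 110 to 145, and RPE/choroid, from 127 to 149, overlapped with both collagen-rich tissues. The crystalline lens was again lowest, at 15.9, 24.3 and 18.4. The errors within these arrays were 4.76, 4.39 and 4.95, where a probe counts as detected above 3 errors.

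mmu-miR-29c-3p, encoded beside Mir29b-2, was highest in the retina and not in the brain. It measured 1391, 1358 and 1073 in the retina on the normal, 0 D and −30 D arrays, 815, 871 and 849 in the SCN, and 511, 533 and 493 in the LGN. In the sclera it measured 222, 202 and 154, and in the cornea 86.3, 89.6 and 78.9. The cornea had the lowest mean of the 8 tissues, and its range touched that of the crystalline lens, which measured 89.2, 112 and 107. Iris, from 231 to 279, and RPE/choroid, from 225 to 285, lay above all the sclera arrays.

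**Figure D1:**
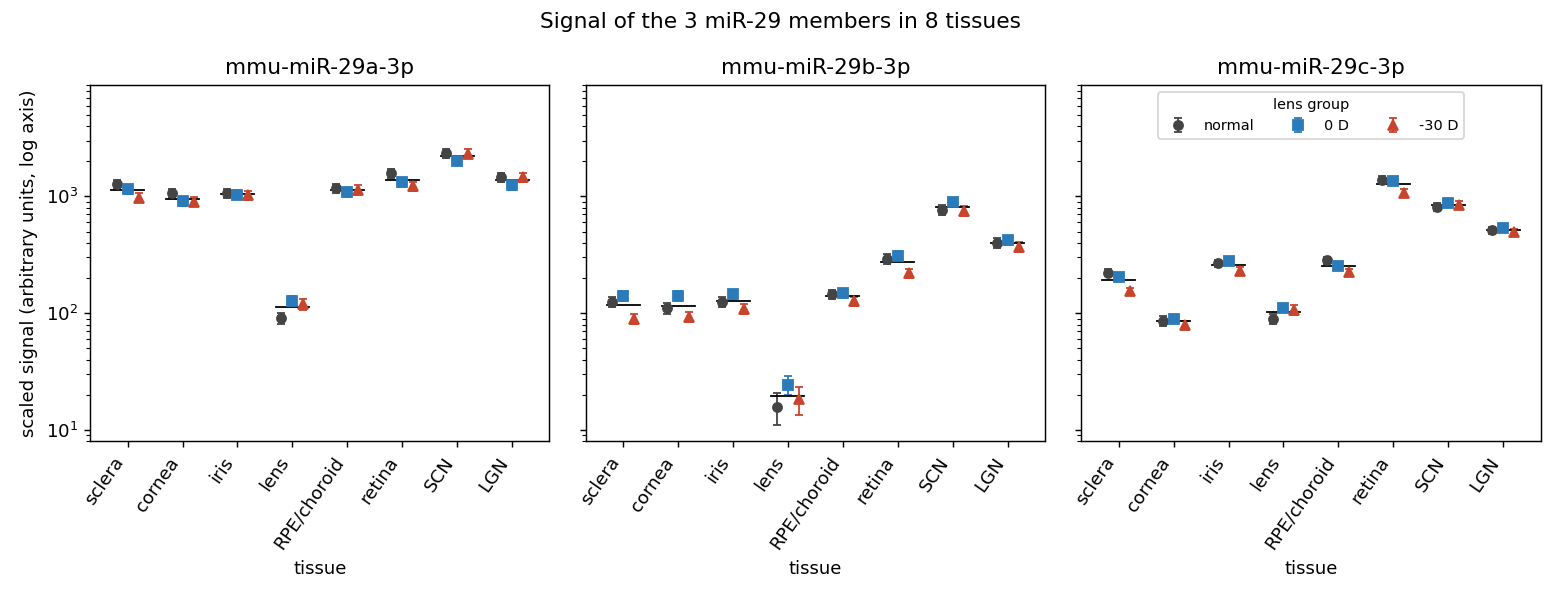
Scaled signal (arbitrary units, log axis) of the 3 members in 8 tissues, with 1 point per array, colored by lens group. Error bars are the error within an array, and a black line marks the mean of the 3 arrays of a tissue. mmu-miR-29a-3p has tissue means from 958 to 2235 outside the crystalline lens, mmu-miR-29b-3p is highest in the SCN, and mmu-miR-29c-3p runs from a mean of 85.0 in the cornea to 1274 in the retina.

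Ordered by mean log2 signal, mmu-miR-29a-3p ran from SCN, LGN, retina, RPE/choroid, sclera, iris and cornea to the crystalline lens, and the highest tissue mean (2235 ± 179, SD, n = 3) was 19.9 times the lowest (113 ± 19.3, SD, n = 3). Of the 7 steps between neighbors in this order, those from SCN to LGN and from cornea to the crystalline lens passed limma's test with lens group as a block, at an adjusted p under 0.05, and the other 5 did not. mmu-miR-29b-3p ran from SCN, LGN, retina, RPE/choroid, iris, sclera and cornea to the crystalline lens, over a 41.2-fold range of tissue means. The low end of this range, in the crystalline lens, lay near the detection limit. The 3 steps from RPE/choroid to iris, sclera and cornea did not pass, with adjusted p from 0.485 to 1, and the other 4 passed. mmu-miR-29c-3p ran from retina, SCN, LGN, iris, RPE/choroid, sclera and the crystalline lens to the cornea, over a 15.0-fold range. Here iris and RPE/choroid (adjusted p = 1), and the crystalline lens and cornea (adjusted p = 0.0551), were not separated. Over the 28 pairs of tissues, mmu-miR-29a-3p passed in 17, mmu-miR-29b-3p in 23 and mmu-miR-29c-3p in 26, where 48.3% of all miRNA and pair values passed.

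The collagen-rich tissues were then compared with the retina. In the sclera, mmu-miR-29c-3p was lower than in the retina by a log2 difference of −2.73 ± 0.11 (SE, limma, adjusted p = 2.21e-12, n = 3 arrays each), or 6.65-fold, and stood at 14.3% to 16.0% of the retina of the same lens group. mmu-miR-29b-3p was lower by −1.22 ± 0.11 (adjusted p = 6.1e-08 in limma), or 2.33-fold. mmu-miR-29a-3p differed by −0.28 ± 0.13 (adjusted p = 0.0717 in limma), which did not pass. This difference depended on the processing and turned to 0.40 after normexp background correction. Thus 2 of 3 members were lower in the sclera, where 30.3% of the 337 miRNAs tested were lower.

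In the cornea all 3 members were lower than in the retina, against 30.3% of the miRNAs tested. mmu-miR-29c-3p showed the largest difference of the 3, at −3.90 ± 0.11 on the log2 scale (limma, adjusted p = 1.33e-14), or 14.9-fold, and stood at 6.21% to 7.35% of the retina. mmu-miR-29b-3p differed by −1.26 ± 0.11 (adjusted p = 3.87e-08 in limma), and mmu-miR-29a-3p by −0.52 ± 0.13 (adjusted p = 0.00189 in limma). With the total signal printed in the files, the difference of mmu-miR-29b-3p turned to 0.83 (adjusted p = 0.236 in limma). The difference of mmu-miR-29a-3p was no longer called after quantile normalization, at −0.06, or after normexp correction, at −0.09. Its size in the cornea depended on the scaling, as it was −2.03 with no scaling and −3.24 with the 75th percentile over all miRNAs, and mmu-miR-29b-3p and mmu-miR-29c-3p moved in the same way, to −3.98 and −6.62 with the latter. Between the 2 collagen-rich tissues, mmu-miR-29c-3p was lower in the cornea by −1.17 ± 0.11 (limma, adjusted p = 1.11e-07), while mmu-miR-29a-3p (−0.24 ± 0.13, adjusted p = 0.166) and mmu-miR-29b-3p (−0.04 ± 0.11, adjusted p = 1) did not pass.

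Against the brain, mmu-miR-29b-3p showed the largest difference of the 3 members in the sclera. It was lower in the sclera than in the SCN by −2.78 ± 0.11 on the log2 scale and than in the LGN by −1.77 ± 0.11 (limma, adjusted p = 7.93e-13 and 4.85e-10). All 3 members were lower in the sclera than in the SCN, where 35.0% of the miRNAs tested were, and mmu-miR-29b-3p and mmu-miR-29c-3p were lower than in the LGN, where 29.1% were. mmu-miR-29a-3p differed between sclera and LGN by −0.29 ± 0.13 (limma, adjusted p = 0.0601). In the cornea all 3 members were lower than in the SCN, with 35.9% of miRNAs lower, and than in the LGN, with 28.8% lower, with log2 differences from −0.53 for mmu-miR-29a-3p against the LGN to −3.32 for mmu-miR-29c-3p against the SCN. The former was not called after quantile normalization, at −0.30, or without the −30 D arrays, at −0.45 (adjusted p = 0.055 in limma). With the total signal printed in the files, mmu-miR-29b-3p in the cornea turned to 0.25 against the LGN (adjusted p = 0.872 in limma). Against the SCN it lost its call, at −0.76 (adjusted p = 0.258 in limma).

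Sclera and cornea together were also set against the mean of the other 6 tissues. mmu-miR-29b-3p was lower by −0.61 ± 0.06 and mmu-miR-29c-3p by −1.63 ± 0.06 on the log2 scale (limma, adjusted p = 2.52e-07 and 7.44e-13), where 44.8% of the miRNAs tested were lower. mmu-miR-29a-3p was higher by 0.20 ± 0.07 (adjusted p = 0.0225 in limma), where 28.2% of miRNAs were higher. The call was lost without the 0 D arrays (0.19, adjusted p = 0.127 in limma) and without the normal arrays (0.13, adjusted p = 0.106 in limma), and the value rested on the crystalline lens. With that tissue left out of the contrast, an alternative chosen after the data were seen, mmu-miR-29a-3p was lower in sclera and cornea by −0.41 ± 0.07 (limma, adjusted p = 0.000123), and mmu-miR-29b-3p and mmu-miR-29c-3p were lower by −1.25 and −2.01. With the total signal printed in the files, mmu-miR-29b-3p was not called against the other 6 tissues (−0.16, adjusted p = 0.684 in limma). The level in a mixed tissue cannot tell fewer cells of a type from less miRNA in each cell. Muscle markers differed in the crystalline lens too, where the summed level of 4 striated muscle miRNAs lay between 686 and 757, against 12.7 to 14.6 in the retina, and their part in the member values was not tested.

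Differences between members on the same array are free of the scaling between arrays, so they show how the make-up of the family moved from tissue to tissue. Relative to the retina, the log2 difference of mmu-miR-29c-3p minus mmu-miR-29a-3p was −3.38 ± 0.06 in the cornea, −2.45 ± 0.11 in the sclera, −2.05 ± 0.16 in the RPE/choroid and −1.90 ± 0.07 in the iris (SD over the 3 lens groups). In the SCN and LGN it was −1.29 ± 0.05 and −1.32 ± 0.06, and in the crystalline lens it was −0.01 ± 0.20. The share of mmu-miR-29c-3p against mmu-miR-29a-3p was thus 10.4-fold lower in the cornea than in the retina. In the crystalline lens it was about as in the retina, in spite of the low level of both members there. The crystalline lens arrays also held the retina markers, at 0.81% to 2.94% of the retina's summed level. The members stood at 5.75% to 9.96% of the retina there, and the part of retinal RNA in this share was not tested. The difference of mmu-miR-29b-3p minus mmu-miR-29a-3p was above that of the retina in the SCN (0.86 ± 0.05) and the LGN (0.54 ± 0.03), and below it in the other 5 tissues, from −0.20 ± 0.10 in the crystalline lens to −0.94 ± 0.02 in the sclera. In every tissue but the crystalline lens the 3 arrays lay on one side of 0 for both differences.

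**Figure D2:**
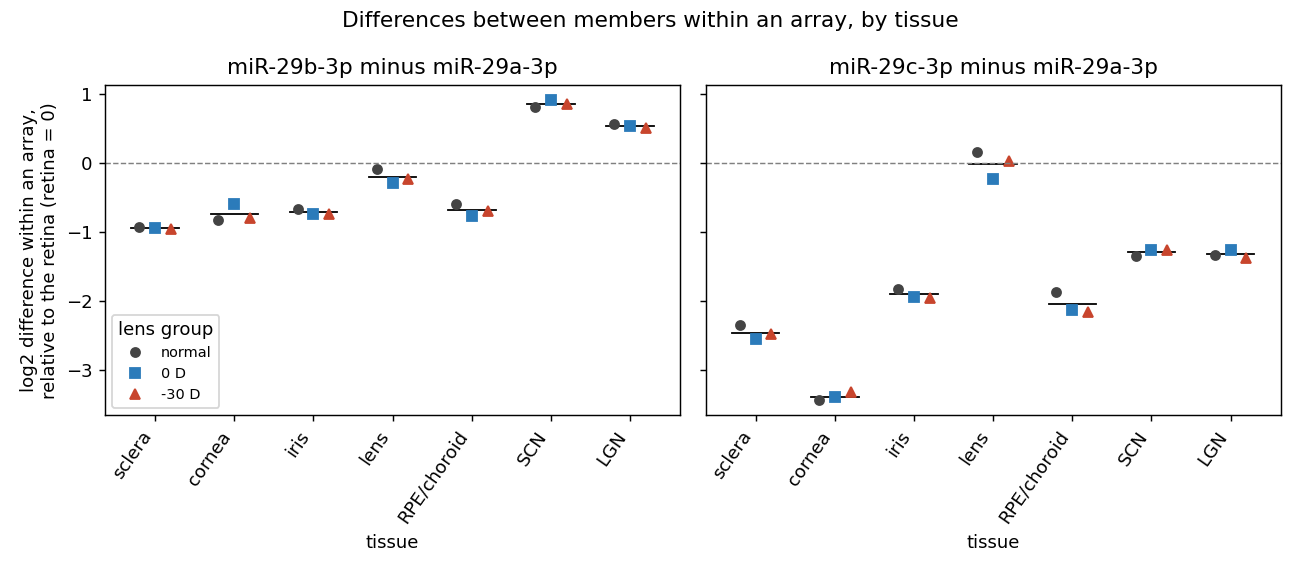
Log2 difference between 2 members on the same array, minus that of the retina array of the same lens group, for 7 tissues. Points are arrays, colored by lens group, black lines are means of 3, and the dashed line at 0 is the retina. The 3 lens groups lie close together in each tissue, and the difference of miR-29c-3p minus miR-29a-3p reaches −3.38 in the cornea.

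The opposite arm of the miR-29c precursor gave a second readout of that gene with unlike bases. Its sequence is shown with bases 2 to 8 in capitals, and it occupies chr1:195037562-195037583 on the plus strand.
mmu-miR-29c-5p: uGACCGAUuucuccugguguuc

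mmu-miR-29c-5p was detected on 18 of 24 arrays, all 3 of each tissue except the cornea and the crystalline lens, where it was detected on none. Its scaled signal was 53.1 ± 3.77 (SD, n = 3) in the retina, 48.2 ± 6.42 in the SCN, 31.0 ± 1.59 in the LGN, 29.0 ± 1.69 in the iris, 10.3 ± 0.493 in RPE/choroid and 8.21 ± 0.880 in sclera. This is the same order of tissues as for mmu-miR-29c-3p. Over all miRNAs, the lowest detected signal was 4.06 to 9.93 on the cornea arrays and 6.18 to 9.61 on the crystalline lens arrays. A level of mmu-miR-29c-5p near that of the sclera could thus go undetected on some of those arrays. The sclera stood at 14.6% to 16.0% of the retina, and at 14.3% to 16.0% for the 3p arm, and the RPE/choroid stood at 17.0% to 21.3% and at 18.7% to 20.9%. The other 3 tissues stood nearer to the retina for the 5p arm than for the 3p arm, with 52.2% to 57.9% against 19.2% to 21.5% in the iris, 81.0% to 112% against 58.6% to 79.1% in the SCN and 51.8% to 66.0% against 36.7% to 45.9% in the LGN. Over the 18 arrays, which share RNA and scaling and hold 3 arrays per tissue, the log2 signal of mmu-miR-29c-5p had a Pearson r of 0.87 with mmu-miR-29c-3p, 0.71 with mmu-miR-29b-3p and 0.60 with mmu-miR-29a-3p. The 5p arms of the other precursors were dim, as mmu-miR-29b-1-5p was detected on 1 array and mmu-miR-29a-5p and mmu-miR-29b-2-5p on 0 of 24.

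**Figure D3:**
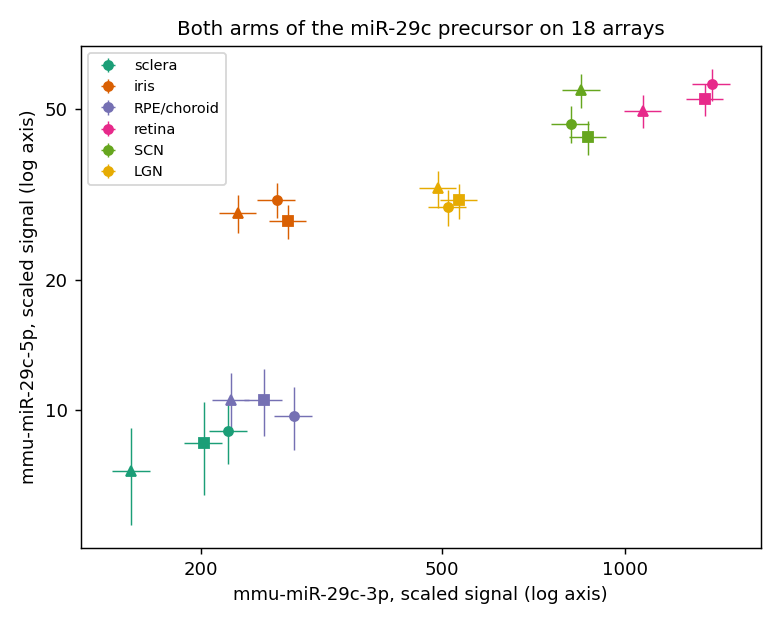
Scaled signal of mmu-miR-29c-5p against mmu-miR-29c-3p (both on log axes) on the 18 arrays that detected both. Colors are tissues, circles normal, squares 0 D and triangles −30 D arrays, and bars the error within an array. Sclera and RPE/choroid lie at the low end of both axes and retina and SCN at the high end.

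Among the members, the log2 signals over the 24 arrays had a Pearson r of 0.91 between mmu-miR-29a-3p and mmu-miR-29b-3p, 0.79 between mmu-miR-29b-3p and mmu-miR-29c-3p, and 0.63 between mmu-miR-29a-3p and mmu-miR-29c-3p. Among the 76 other miRNAs detected on all arrays, the pattern most like that of mmu-miR-29c-3p was that of mmu-miR-345-5p (r = 0.97), followed by mmu-let-7g-5p (0.96) and mmu-miR-361-5p (0.93). For mmu-miR-29b-3p the most like were mmu-miR-103-3p (0.91), mmu-miR-107-3p (0.88) and mmu-miR-345-5p (0.88), and for mmu-miR-29a-3p they were mmu-let-7d-5p (0.84), mmu-let-7c-5p (0.82) and mmu-miR-26a-5p (0.81). These are descriptions over 24 arrays of 8 tissues, with 3 arrays per tissue.

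Other miRNAs linked in the literature to matrix and fibrosis, 12 in all, were mostly on the opposite side in the sclera. Compared with the retina, 8 of the 12 were higher in the sclera and 2 lower in limma, where 28.2% of all miRNAs tested were higher, and the median log2 difference of the list was 1.86 against 0.00 over all miRNAs. mmu-miR-199a-5p, mmu-miR-214-3p, mmu-miR-143-3p and mmu-miR-455-3p were detected on no retina array, so the floor of the fit set their value there. They could therefore not come out lower in the sclera, and they are among the 8 higher ones. The list was also chosen with earlier results of these data known. miRNAs undetected in both tissues, such as mmu-miR-145a-5p, have no difference. The list holds both arms of miR-199a and of miR-140, which are not independent. mmu-miR-199a-3p, a miRNA of mesenchymal cells, measured 832 to 929 in the sclera and 3.63 to 4.78 in the retina, and mmu-miR-140-3p, a cartilage miRNA, measured 135 to 181 and 33.4 to 39.8. The 2 lower ones were mmu-miR-30c-5p (−1.29 ± 0.13, adjusted p = 2.84e-07 in limma) and mmu-miR-26a-5p (−0.39 ± 0.09, adjusted p = 0.000939 in limma). In the cornea 5 of the 12 were higher and 4 lower, where 21.1% of miRNAs were higher, and the list's median was 0.07.

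Lens wear was compared within each tissue by the ratio of 2 arrays, with no test. By the study's criteria, a ratio above 2 or below 0.5 where both arrays detect the miRNA, none of the 24 member values (3 members in 8 tissues) was called in any of the 3 comparisons. Of all miRNA values detected on both arrays, as the members were, the same limits called 5.39% for −30 D over normal, 4.91% for 0 D over normal and 4.43% for −30 D over 0 D, a share of about 1 in 24, so that the absence of a call sets the members little apart. The members' log2 ratios ran from −0.53 to 0.39 for −30 D over normal, from −0.26 to 0.62 for 0 D over normal and from −0.64 to 0.23 for −30 D over 0 D. The error of a ratio within the arrays was 0.15 to 0.58 on the log2 scale, and it holds no spread between animals.

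The sclera had the lowest ratio of −30 D over normal for each member. There mmu-miR-29c-3p differed by −0.53 ± 0.15 on the log2 scale (error within the arrays), mmu-miR-29b-3p by −0.47 ± 0.20 and mmu-miR-29a-3p by −0.39 ± 0.18. The retina followed, with −0.37 ± 0.15, −0.42 ± 0.19 and −0.36 ± 0.18 in the same order. The median log2 ratio of all miRNAs detected on both arrays was −0.18 in the sclera and −0.22 in the retina, so that the typical miRNA was also lower in these 2 comparisons. Between 11.6% and 18.4% of the miRNAs detected in the sclera had a lower ratio than the members. The summed retina markers were also lower in the sclera, with a log2 ratio of −1.06 for −30 D over normal, and their part in the member ratios was not tested. In the crystalline lens all 3 members had a higher signal with the −30 D lens than in normal eyes. The log2 ratios were 0.39 ± 0.22, 0.21 ± 0.58 and 0.26 ± 0.20 for mmu-miR-29a-3p, mmu-miR-29b-3p and mmu-miR-29c-3p. The summed retina markers were higher there too, with a log2 ratio of 1.70 for −30 D over normal. Over the 3 lens groups they lay at 0.81% to 2.94% of the retina's level, and their part in these ratios was not tested.

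**Figure D4:**
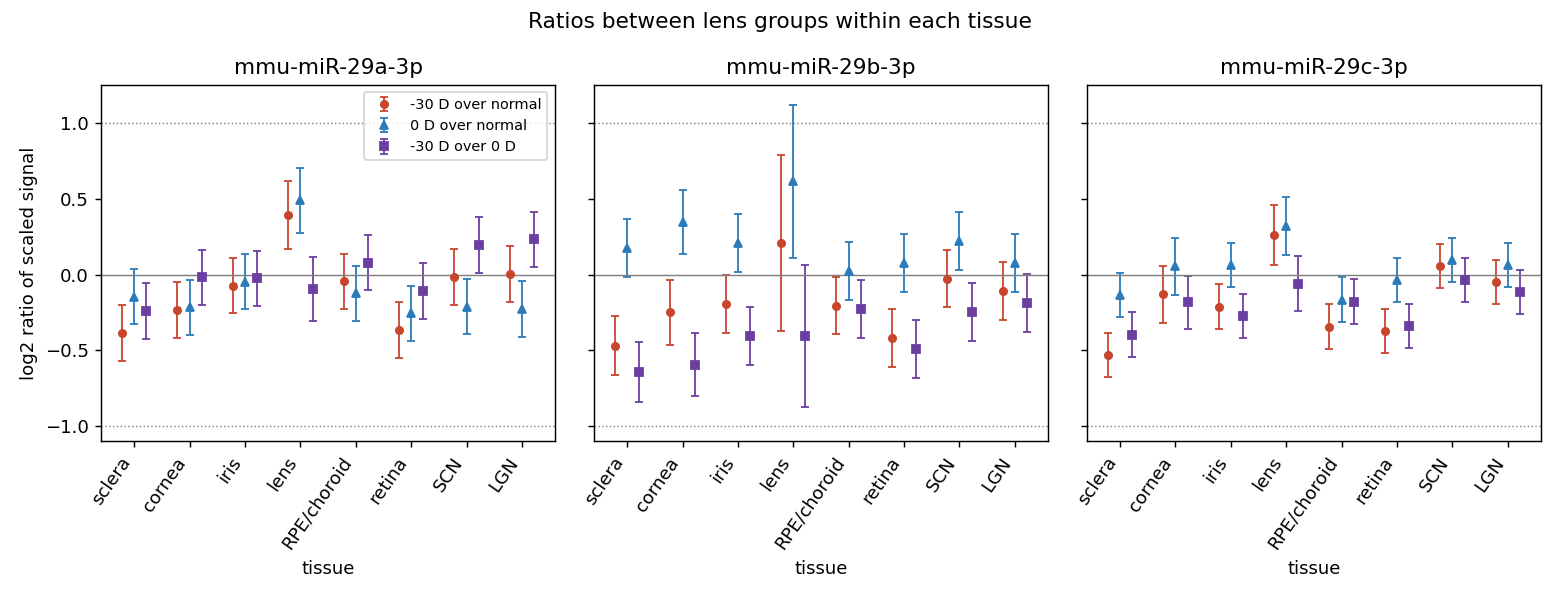
Log2 ratios of scaled signal between lens groups within each tissue, 1 panel per member, with bars for the error propagated from the 2 arrays. Dotted lines mark ratios of 2 and 0.5. For mmu-miR-29b-3p all 8 squares, −30 D over 0 D, lie below 0, from −0.64 in the sclera to −0.19 in the LGN.

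Changes shared by the tissues were tested in limma with tissue as a block. For −30 D against normal, mmu-miR-29a-3p differed by −0.09 ± 0.08 (adjusted p = 0.821), mmu-miR-29b-3p by −0.18 ± 0.07 (adjusted p = 0.397) and mmu-miR-29c-3p by −0.17 ± 0.06 (adjusted p = 0.448). No miRNA of the 337 passed in this contrast (0.0% called by limma, 25 at an unadjusted p under 0.05). For 0 D against normal the values were −0.09 ± 0.08, 0.22 ± 0.07 and 0.03 ± 0.06 in the same order (adjusted p = 0.612, 0.167 and 0.899), and 0.593% of all miRNAs were called. Misses of the threshold do not show that the levels were equal.

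For −30 D against 0 D, mmu-miR-29b-3p was lower by −0.40 ± 0.07 on the log2 scale (limma, adjusted p = 0.00883, n = 8 arrays each). It was the single miRNA called among the 337, or 0.297%. It was called beside others in a fit of only the 79 miRNAs detected on all arrays (6 higher, 3 lower). It was also called beside others without scaling (26 of 337 lower). Its ratio was below 0 in all 8 tissues, at −0.64 in the sclera, −0.59 in the cornea, −0.49 in the retina, −0.41 in the iris and in the crystalline lens, −0.25 in the SCN, −0.23 in the RPE/choroid and −0.19 in the LGN. mmu-miR-29c-3p was also lower in all 8 tissues, by a mean of −0.20 ± 0.06, which did not pass (adjusted p = 0.163 in limma), and mmu-miR-29a-3p differed by 0.00 ± 0.08 (adjusted p = 1 in limma). The exact two-sided sign-flip permutation test over the 8 tissues gave p = 0.00781 for both mmu-miR-29b-3p and mmu-miR-29c-3p, the smallest that 8 tissues allow. Adjusted over all members and comparisons, this permutation p was 0.0234 for both. In the 6 ocular tissues alone it was 0.0313 for both, or 0.0938 adjusted. Since each lens group is 1 slide and its ocular tissues share mice, the 8 tissues share whatever the slides and the mice differ in, and both tests treat them as independent.

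The call for mmu-miR-29b-3p was not kept without the cornea arrays (adjusted p = 0.0767 in limma), without the iris arrays (0.0611) or in the 6 ocular tissues alone (−0.46, adjusted p = 0.0526). It was also lost with the 75th percentile over all miRNAs (−0.24, adjusted p = 0.899 in limma) and with the dimmer probe alone (−0.16, adjusted p = 0.139 in limma), and the direction turned with the total signal printed in the files (0.12, adjusted p = 0.926 in limma). The 0 D arrays enter this comparison and that of 0 D over normal. In the latter, mmu-miR-29b-3p was higher in all 8 tissues, from 0.03 in the RPE/choroid to 0.62 in the crystalline lens. The error within the arrays was 0.505 for the crystalline lens. The exact permutation p over the 8 tissues was 0.00781, or 0.0234 adjusted over all members and comparisons. On the same arrays, and so free of scaling, mmu-miR-29b-3p minus mmu-miR-29a-3p moved by −0.40 ± 0.08 (SD over 8 tissues) from 0 D to −30 D, by 0.31 ± 0.14 from normal to 0 D, and by −0.09 ± 0.07 from normal to −30 D, with the same sign in all 8 tissues each time. The 0 D arrays thus lay apart from both other groups in this difference of summed probes. An undetected probe adds nothing to a sum, and the dimmer probe of mmu-miR-29b-3p was detected on 19 of 24 arrays. For −30 D over 0 D the probes of mmu-miR-29a-3p disagreed, with means of 0.05 for the brighter and −0.20 for the dimmer. The difference was not computed for single probes.

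The members were read by 2 probes each, with 15 spots per probe and no saturated spot. On the arrays where both probes were detected, their log2 signals had a Pearson r of 0.99 or above for each member. The dimmer probe was detected on 22 arrays for mmu-miR-29a-3p, 19 for mmu-miR-29b-3p and 24 for mmu-miR-29c-3p. For −30 D over 0 D both probes of mmu-miR-29b-3p were lower, the brighter by −0.39 in 8 of 8 tissues and the dimmer by −0.34 in 6 of 6. The probes of mmu-miR-29a-3p disagreed, with a mean of 0.05 for the brighter and −0.20 for the dimmer, which was lower in 7 of 7 tissues.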

How the data were processed

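The intensity values in the scanner files were made by the authors with Agilent Feature Extraction 10.7.1.1 (submitters' processing notes), which subtracts background and gives each probe a total signal with an error. A table deposited under the name normalized was not used.

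A miRNA was detected where a probe exceeded 3 errors, and its signal was the sum over such probes. On each array 129 to 249 miRNAs (6.86% to 13.2%) were detected. Signals were divided by the 75th percentile of the 79 miRNAs that all arrays detected (log2 factors −1.01 to 1.66). The largest factors were those of the crystalline lens (1.27 to 1.66) and cornea (0.69 to 0.98) arrays. For the fit, 337 miRNAs detected on all 3 arrays of a tissue were taken, with values under 9.93 set to it. limma 3.58.1 (R 4.3.3) was fitted with tissue and lens group, with a mean-variance trend and Benjamini-Hochberg adjustment over the 337 within each contrast. p-values measure the spread between these arrays. The fit was tested on simulated data. Group labels came from the sample titles.

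The members, the marker and matrix lists and the named miRNAs (members, their 5p arms, the miRNAs of highest correlation, the lists) were chosen with earlier results of these data known. Alternatives covered scaling, background correction, the filter, the floor, the trend, the block and leaving out arrays. The total signal printed in the files, each probe alone and the contrast without the crystalline lens were added after the data were seen. The promoters and the predicted targets were not analysed here. Tables and figures were made in Python 3.11.15 (pandas 2.3.3, numpy 2.4.6, matplotlib 3.10.9, scipy 1.17.1).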

Additional observations from a re-analysis of the deposited data

Results flagged for a closer look

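Over the 8 tissues, the log2 ratio of mmu-miR-29a-3p for 0 D over normal was far from the others in the crystalline lens, at 0.49, while the other 7 tissues lay between −0.26 and −0.05. It was 1 of 9 sets of ratios (3 members, 3 comparisons) examined for a value that stands apart, and chance marks about 1 in 20 such sets. The normal array of the crystalline lens enters the ratio, and it gave the lowest signal of the 24 arrays for this member. That signal, 90.8, was of the brighter probe alone. The dimmer probe was detected on 22 of 24 arrays, and an undetected probe adds nothing to the sum. The summed retina markers had a log2 ratio of 1.27 for 0 D over normal in the crystalline lens. The part of either in the ratio was not tested.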

How the results depend on the processing

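Between tissues, mmu-miR-29c-3p stayed lower in sclera and cornea than in retina, SCN and LGN under every alternative run. For mmu-miR-29a-3p, sclera and cornea against the other 6 tissues reversed with the 75th percentile over all miRNAs (−0.97), without scaling (−0.44), without the crystalline lens (−0.41) and with the printed total signal (−0.044), and ran from 0.13 to 0.28 when 1 lens group was left out, losing its call without the 0 D and without the normal arrays. Sclera minus retina reversed with normexp (0.40) and was called with the percentile over all miRNAs (−1.34), spot signals (−0.35), miRNAs detected on all arrays (−0.28), no scaling (−1.11), 1 probe alone (−0.33) and the printed signal (−0.49). Sclera minus LGN was called with the percentile over all miRNAs (−0.90), spot signals (−0.28), miRNAs detected on all arrays or undetected ones at 0.1 (both −0.29), no scaling (−0.96), either probe alone (−0.31 and −0.29) and the printed signal (−0.54), and ran from −0.38 to −0.15 without 1 lens group. Cornea minus retina lost its call with quantile normalization (−0.055) and normexp (−0.088) but was −3.24 with the percentile over all miRNAs and −2.03 without scaling. Cornea minus LGN lost it with quantile normalization (−0.30) and without the −30 D arrays, and ran from −0.57 to −0.45 without 1 lens group. In sclera and cornea against the other 6 tissues, the median log2 difference of all miRNAs was −0.04 as scaled here, −0.32 without scaling and −0.39 with the percentile over all miRNAs.

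The total signal printed in the files differed from the sum of the probes by over 1% in 7 of 72 member values, all on cornea and crystalline lens arrays. These were 2 values of mmu-miR-29a-3p, 5 of mmu-miR-29b-3p and 0 of mmu-miR-29c-3p. The dimmer probe was detected on 22, 19 and 24 of the 24 arrays in the same order, and the sum leaves out undetected probes. On the normal cornea array, mmu-miR-29b-3p was 56.4 as the sum and 595 as printed, both before scaling. The dimmer probe of mmu-miR-29b-3p reached at most 66.6, as scaled signal, on any array. What makes up these gaps was not tested. With the printed signal, mmu-miR-29b-3p reversed in cornea minus LGN (0.25), cornea minus retina (0.83) and −30 D minus 0 D (0.12). It also lost its call in cornea minus SCN (−0.76) and in sclera and cornea against the rest (−0.16). mmu-miR-29b-3p, −30 D minus 0 D, also lost its call in the 6 ocular tissues (−0.46), with the percentile over all miRNAs (−0.24) and with its dimmer probe alone (−0.16, values under the floor set to it), and ran from −0.43 to −0.37 without 1 tissue. Without scaling, mmu-miR-29b-3p was called for 0 D minus normal (0.46) and mmu-miR-29c-3p for −30 D minus 0 D (−0.43). Within a tissue, the criteria called 3 member values for −30 D over normal with the percentile over all miRNAs, 1 for 0 D over normal without scaling, and 1 for 0 D over normal and 2 for −30 D over 0 D at a ratio of 1.5, and 1 each with the printed signal. The cause was not tested. The lens comparisons were paired by tissue. In the tissue comparisons, leaving out the lens group as a block changed no call.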
